A study of Mus musculus with 48 samples.

Results

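Ezrin, radixin and moesin (the ERM proteins) hold the plasma membrane to the actin cortex, with an N-terminal FERM domain that binds membrane proteins and a C-terminal tail that binds filamentous actin. In the resting protein the tail masks the FERM domain, and binding of the lipid PIP2 followed by phosphorylation of a conserved threonine in the tail opens it. In the early mouse embryo ezrin is known for its place at the outer, apical surface of blastomeres. The genes described here are 10 of the 49671 in the counts, chosen by name for these roles: Ezr, Rdx and Msn for the ERM proteins, Nf2 for the related FERM protein merlin, Slk and Stk10 for kinases that phosphorylate the ERM threonine, Slc9a3r1 and Slc9a3r2 for PDZ scaffolds that bind the FERM domain, Cd44 for a membrane receptor that binds it, and Actn4 for an actin crosslinker of the cortex. Symbols were matched to Ensembl identifiers through GENCODE M21, and all 10 matched. A count was present for 9 of them, and 6 (Ezr, Rdx, Msn, Nf2, Slc9a3r1 and Actn4) were among the 8929 genes tested, those with a mean log2(FPKM + 1) above 1. FPKM is the count scaled by the exon length of the gene and the library size of the cell.

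The study asked how primitive endoderm and epiblast sort within the inner cell mass (ICM). Embryos at E3.75 came from natural matings between PDGFRa::H2B-GFP/+ mice, in which H2B-GFP was placed at the Pdgfra locus, and F1 hybrids of C57BL/6JxCBA/J. The 3 embryos were picked for a salt-and-pepper pattern of GFP, their trophectoderm was removed by immunosurgery, and 48 cells were profiled with Smart-seq2, which copies whole transcripts and uses neither strand marks nor molecular identifiers. All cells come from embryos of this cross that were positive for H2B-GFP, at the same stage. The sample titles call them WT. They were set apart by the branch of the study's dendrogram on which they lie. There were 25 cells on the branch of the future epiblast (pEPI) and 23 on that of the future primitive endoderm (pPrE). Total counts per cell ran from 1718970 to 7342785 with a median of 4017082, and the medians were 3751329 in pEPI and 4251373 in pPrE. No label gives the embryo of a cell, so the 48 cells are 1 sample without replicates, each SD is a spread between cells, and no p-value was computed. Because the dendrogram rests on expression in these very cells, every difference between the branches is a description.

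The branches carried the markers of their names. Of 8 pEPI markers, all tested, 7 were at least 1.5-fold lower in pPrE, with Nanog at a mean of 314.8 FPKM in pEPI and 43.7 in pPrE, and Bmp4 was the exception with a log2 ratio of 0.17. Of 10 pPrE markers, 9 were tested and all 9 were at least 1.5-fold higher in pPrE, with Gata4 at 5.25 FPKM in pEPI and 52.9 in pPrE, while Dab2 was below the limit of testing. Trophectoderm markers, looked up because immunosurgery can leave such cells, were tested for 2 of 8 genes, and neither reached 1.5-fold. Their summed level averaged 47.4 FPKM in the 25 pEPI cells, with an SD of 43.4, and 34.98 FPKM in the 23 pPrE cells, with an SD of 23.9. Most of it was the keratin Krt8 at 34.3 FPKM. Among the defining genes of trophectoderm, Cdx2 was counted in 3 cells, Elf5 in 5, Gata3 in 9 and Krt7 in 1, while Eomes was counted in 22 cells, at a mean of 3.21 FPKM, and the keratin Krt18 in 13. No marker of this list was at 0 in all cells.

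A second division of the cells bears on several values here. Counts summed over Kdm5d, Uty, Eif2s3y and Ddx3y, which are on the Y chromosome, lay between 242 and 1298 in 29 cells and between 0 and 1 in the other 19. In well order these cells formed 4 runs, with Y-linked counts in A1 to C2 (18 cells) and E1 to F3 (11 cells) and without them in C3 to D8 (14 cells) and F4 to F8 (5 cells). Both branches were present on each side, with 17 pEPI and 12 pPrE cells with Y-linked counts and 8 pEPI and 11 pPrE cells without. The 4 runs outnumber the 3 embryos stated by the study, so runs and embryos do not match 1 to 1. Sex, embryo and position in well order cannot be told apart in this division.

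Ezr (ENSMUSG00000052397, GRCm38 chr17:6738041-6782784) was the most abundant of the 10 genes per length, at 74.8 ± 29.8 FPKM (SD, n = 48 cells), and was counted in every cell. Its lowest, median and highest values were 24.8, 84.5 and 145.1 FPKM in pEPI and 14.2, 67.2 and 147.8 in pPrE. The branches overlapped almost over their full range, and the highest cell of all, D2, was a pPrE cell. In 31.8% of all pairs of a pPrE with a pEPI cell the pPrE cell had more Ezr. The log2 ratio of mean FPKM, pPrE over pEPI, was -0.36 (95% interval -0.39 to -0.33), below the 1.5-fold used here to call a difference. Intervals of log2 ratios, here and further on, cover counting error only, since cells are not replicates and several reads can stem from 1 molecule. Exact binomial intervals of a share of cells, given further on, treat cells as independent draws. Cells of the same embryos are not, so those intervals describe these cells alone and may be too narrow.

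Rdx (ENSMUSG00000032050, chr9:52047173-52088735), which codes for radixin, was counted in every cell at 33.5 ± 16.1 FPKM (SD, n = 48 cells). Values ran from 12.9 through a median of 31.7 to 67.6 FPKM in pEPI, and from 8.005 through 29.8 to 76.5 in pPrE. The medians lay close together, and the pPrE cells held both the lowest and the highest value. The log2 ratio was -0.18 (-0.22 to -0.15). It was -0.41 among cells with Y-linked counts and 0.21 among cells without them, so the direction of this small difference was not shared by both sets.

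Msn (ENSMUSG00000031207, chrX:96096042-96168552), the X-linked moesin gene, was far more uneven. It was counted in 37 of 48 cells (77.1%, 62.7% to 88.0% by the exact binomial method), among them 21 pEPI and 16 pPrE cells, at 6.93 ± 8.71 FPKM (SD, n = 48 cells). In pEPI its values reached from 0 through a median of 3.36 to 42.2 FPKM, and in pPrE from 0 through 3.78 to 19.8. The pEPI cells F3, E2 and A2 were the highest, at 42.2, 31.6 and 22.99 FPKM, followed by pPrE cells, and cell E2 alone held 890 of all 8092 Msn counts. The log2 ratio of means was therefore -0.46 (-0.52 to -0.40) although the pPrE median was the larger. Msn turned with the Y-linked division: the ratio was -1.42 among cells with Y-linked counts and 1.14 among cells without them. It also passed 1.5-fold without the cells of well letter C (-0.80) or D (-0.82). Without against with Y-linked counts, Msn had a log2 ratio of -0.26, and the median over 323 X-linked genes tested was 0.13. The Msn value was -0.63 without the cells of well letter D, -0.03 without those of F and 0.15 without those of E, so its direction was not firm.

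Summed over the 3 ERM genes, the level per cell was 115 ± 37.8 FPKM (SD, n = 48 cells), from 25.8 to 205.3. It was 127 ± 36.5 in pEPI (n = 25 cells) and 102 ± 35.6 in pPrE (n = 23 cells), a difference smaller than either SD. Ezr made up 64.4% ± 12.8 (SD, n = 48 cells) of the sum and was the highest of the 3 genes in 43 cells, with Rdx highest in the other 5. Moesin transcripts exceeded those of radixin per length in 2 cells, both pEPI. This count depends on the exon lengths: with those of the basic transcripts, chosen after seeing the data, it was 5 cells, 4 pEPI and 1 pPrE, and Ezr was then highest in 42 cells and Msn in 1. A single cell, A5, was lowest for Ezr, Rdx and Actn4 alike, at 14.2, 8.005 and 8.77 FPKM. Its total count of 2240321 was within the range of the other cells.

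The 3 ERM transcripts encode the same amino acids around the regulatory threonine, partly with different codons. The stretch is shown because it is what the kinases below act on. It is also shown because alike coding sequence could let reads be shared between the genes. Each sequence below is 27 coding bases on the coding strand of the gene in GRCm38, with 4 codons on either side of the threonine codon, which is in capitals. The Ezr window is at chr17:6739351-6739377 (minus strand, last of 13 exons, codon 567 of 586), that of Rdx at chr9:52086405-52086431 (plus strand, last of 14 exons, codon 564 of 583) and that of Msn at chrX:96166560-96166586 (plus strand, last of 13 exons, codon 558 of 577).
Ezr: gacaagtataagACGctgcggcaaatc
Rdx: gataagtacaagACCcttcggcagatt
Msn: gacaaatacaagACCctgcgccagatc
Ezr and Rdx differed at 6 of the 27 bases, Ezr and Msn at 5, and Rdx and Msn at 5. Over the whole coding sequences the longest run of identical bases was 15 between Ezr and Rdx, 32 between Ezr and Msn, and 18 between Rdx and Msn. Each of these runs was shorter than the read length that the paper gives. Sharing of reads between the 3 genes was not tested.

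Nf2 (ENSMUSG00000009073, chr11:4765845-4849536) codes for merlin, a FERM protein and tumour suppressor of the Hippo pathway. It was counted in every cell at 6.54 ± 3.78 FPKM (SD, n = 48 cells). In pEPI it ran from 1.57 through a median of 7.48 to 18.6 FPKM and in pPrE from 1.83 through 4.65 to 11.9. The upper end of the pEPI cells was not reached by pPrE cells, but the ranges otherwise overlapped, and in 31.7% of pairs the pPrE cell was the higher. The log2 ratio was -0.53 (-0.59 to -0.46), at -0.67 among cells that had Y-linked counts and -0.47 among the rest. Below 1.5-fold in all cells, Nf2 passed it in the former set, without the cells of well letter C (-0.60), by the sides of PC1 (-0.62), by Ward clusters (-0.70), by the sign of a lineage score of marker genes (-0.60) and by medians (-0.69).

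Actn4 (ENSMUSG00000054808, chr7:28893248-28962340), which codes for a non-muscle alpha-actinin that crosslinks actin filaments, followed the same order with less spread. It was counted in every cell at 36.8 ± 15.9 FPKM (SD, n = 48 cells), from 16.8 through a median of 41.9 to 88.6 FPKM in pEPI and from 8.77 through 28.95 to 56.0 in pPrE. In 23.5% of pairs the pPrE cell was the higher. Its mean was 1.495-fold higher in pEPI, just short of the threshold, at a log2 ratio of -0.58 (-0.61 to -0.55), with -0.72 and -0.45 in the sets with and without Y-linked counts. It passed the threshold without the cells of well letter A (-0.59), C (-0.65) or D (-0.64), by the sides of PC1 (-0.66), by Ward clusters (-0.64) and with a pseudocount of 0.1 (-0.59). The branches held 20.7% of the variance of log2(FPKM + 1) of Actn4, against a median of 1.97% over the genes tested, of which 4.91% had a larger share.

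The kinase transcripts were scarce. Slk (ENSMUSG00000025060, chr19:47579678-47645246), a Ste20-like kinase that phosphorylates ERM proteins, had 1744 counts in all and was counted in 30 of 48 cells (62.5%, 47.4% to 76.0%), which were 13 pEPI and 17 pPrE cells. Its level ran from 0 through a median of 0.0212 to 4.29 FPKM in pEPI and from 0 through 1.41 to 6.39 in pPrE. Cells without a Slk count were more frequent in pEPI, while each branch held both cells at 0 and cells far above its median. The ratio of means, 0.693 FPKM in pEPI and 1.55 in pPrE, was 1.16 on the log2 scale (1.02 to 1.31), with 0.70 and 1.63 in the sets with and without Y-linked counts. Slk was below the limit of testing, and its cell C5 alone held 12.3% of the counts.

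Stk10 (ENSMUSG00000020272, chr11:32533305-32624587), the lymphocyte-oriented kinase of the same family, was counted in 20 of 48 cells (41.7%, 27.6% to 56.8%), 11 pEPI and 9 pPrE, and the median of both branches was 0. Its highest cell, C1, reached 7.51 FPKM. Mean levels of 1.08 FPKM in pEPI and 1.17 in pPrE gave a log2 ratio of 0.12, whose interval of -0.04 to 0.29 includes 0. The direction turned with the Y-linked division, at 0.53 among cells with and -0.53 among cells without Y-linked counts. Stk10 itself averaged 1.41 FPKM with and 0.688 without them (log2 ratio -1.03, -1.24 to -0.83), counted in 15 of 29 and 5 of 19 cells. The kinases did not divide the cells between them: 13 cells had counts of both, 17 of Slk only, 7 of Stk10 only and 11 of neither. Of the 7 cells with Stk10 only, 6 were pEPI. In the 5 cells of F4 to F8 no Stk10 was counted.

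The scaffold Slc9a3r1 (ENSMUSG00000020733, chr11:115163341-115181181), whose protein is called NHERF1 or EBP50 and ties FERM domains to membrane transporters and receptors, was the 1 of 6 tested members past 1.5-fold between the branches, a threshold that 21.8% of all genes tested passed, 9.12% higher and 12.7% lower in pPrE. It was counted in 34 of 48 cells, 17 in each branch, at 23.8 ± 32.2 FPKM (SD, n = 48 cells). Values ran from 0 through a median of 8.53 to 94.3 FPKM in pEPI and from 0 through 14.6 to 130.3 in pPrE. Each branch held cells at 0 as well as cells far above its median, and the pPrE cell was the higher in 61.4% of pairs. The log2 ratio was 1.01 (0.95 to 1.07). It did not hold in both sets: the value was -0.35 among cells with Y-linked counts and 0.78 among cells without, and it was 0.46 when the cells of well letter D were left out and 1.75 when those of C were, and 0.07 by Ward clusters.

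Slc9a3r1 instead followed the Y-linked division. In the 29 cells with Y-linked counts it ran from 0 through a median of 0.6004 to 34.9 FPKM, and in the 19 cells without them from 8.44 through 42.8 to 130.3. Of the cells without Y-linked counts, 12 of 19 lay above every cell with them, and 20 of the 29 cells with Y-linked counts lay below every cell without. All 14 cells at 0 had Y-linked counts, 12 of them in wells A1 to C2 and 2 in E1 to F3. The means were 6.04 ± 8.43 FPKM (SD, n = 29 cells) with and 50.9 ± 36.2 (SD, n = 19 cells) without Y-linked counts, an 8.43-fold ratio or 3.07 on the log2 scale (2.99 to 3.16).

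The same order was present within each branch, with log2 ratios of 2.44 in pEPI and 3.57 in pPrE, and in the medians of the separate runs of wells. The median of Slc9a3r1 was 0 FPKM in A1 to C2, 45.98 in C3 to D8, 7.36 in E1 to F3 and 26.7 in F4 to F8. Among pEPI cells alone the mean was 11.9 FPKM in E1 to F3 (n = 7 cells) and 10.9 in F4 to F8 (n = 2 cells), against the order. The medians of these cells were 8.53 and 10.9. The median total count was 4017080 in the cells at 0 and 4077690 in the other cells. Of the 6 members tested, Slc9a3r1 was the only one past 1.5-fold in this division, in which 22.5% of all genes tested were. Of the members below the limit of testing, Slk stood at 0.64, Stk10 at -1.03 and Slc9a3r2 at 1.68. A ratio as large was less common: 35 of the 8929 genes tested had a larger one or no count in cells with Y-linked counts, 32 of them among the 8603 autosomal genes. The division held 54.3% of the variance of log2(FPKM + 1) of Slc9a3r1, on chromosome 11, against a median of 2.14% over the genes tested, and 41 genes had a larger share. The summed trophectoderm markers also differed between these sets, with means of 47.3 FPKM with and 32.6 without Y-linked counts and medians of 31.02 and 31.1, and Krt8 had a log2 ratio of -0.66. The rho of Slc9a3r1 with their sum was 0.02. The parts of sex, embryo, position in well order and these markers in the difference of Slc9a3r1 were not tested.

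**Figure D1:**
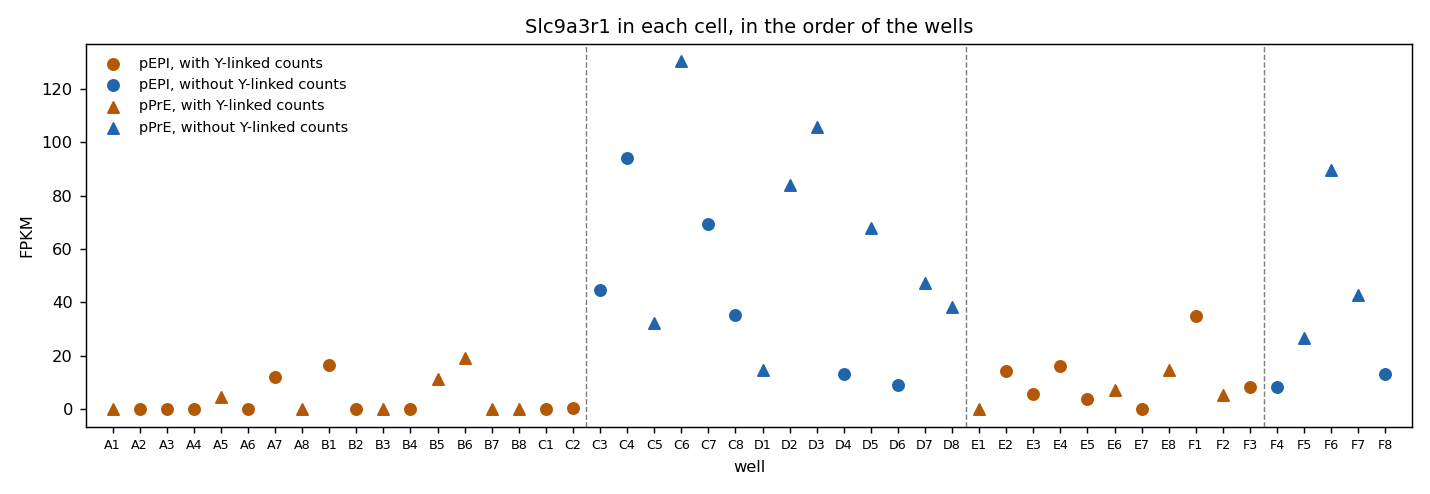
FPKM of Slc9a3r1 in each of the 48 cells in well order from A1 to F8, with point shape for the branch, colour for the presence of Y-linked counts and dashed lines between the 4 runs of wells. All 14 cells at 0 have Y-linked counts, and the 19 cells without them lie between 8.44 and 130.3 FPKM.

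Its relative Slc9a3r2 (ENSMUSG00000002504, chr17:24639286-24650327) was nearly absent, at a mean of 0.686 FPKM and 12.04 in its highest cell, C7, with 410 counts in 6 cells (12.5%, 4.73% to 25.2%), 3 in each branch. Cell C6 held 36.3% of these counts. For Cd44 (ENSMUSG00000005087, chr2:102811141-102901665), the hyaluronan receptor, no read was counted in any cell. A value of 0 of 48 cells allows a share of cells with a count of up to 6.25% by a floor of 3 counts. By the exact binomial method it allows 7.40%. Neither limits the share of cells that express Cd44, since a cell without a count can still hold transcripts. A value of 0 of 189591447 counts allows up to 0.00234 FPKM by the same floor, if reads are independent draws. Several reads can stem from 1 molecule, so the true limit may be higher. This well-known membrane partner of ERM proteins was thus not detected at this depth.

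Ordered by mean FPKM, the genes ran Ezr, Actn4, Rdx, Slc9a3r1, Msn, Nf2, Stk10, Slk, Slc9a3r2 and Cd44. Ezr exceeded Actn4 by more than the SD of either gene, and Nf2 exceeded Stk10 likewise. The other neighbours with counts differed by less than the larger of their SDs. With exon lengths of the basic transcripts Msn stood at 11.4 FPKM and Actn4 at 57.2, and Slk and Stk10 changed places, at 1.24 and 1.16 FPKM. Ezr, at 77.8 FPKM with an SD of 30.97, then exceeded Actn4 by less than its SD. Between the branches 1 of 6 members tested passed 1.5-fold, Slc9a3r1, beside 21.8% of all 8929 genes tested. Over all cells the members thus did not stand above the rest. Leaving out the cells of well letter A, C or D gave 2, 4 and 2 members. The share of all genes tested past 1.5-fold was not computed for these sets. The median log2 ratio of the members tested was -0.41 over all cells, and that of all genes tested was 0.01. Ezr, Nf2 and Actn4 lay lower in pPrE in all 18 ways of computing the ratio, Rdx in 17 and Msn in 16. The exceptions were the cells without Y-linked counts for Rdx and Msn and the ratio of medians for Msn.

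**Figure D2:**
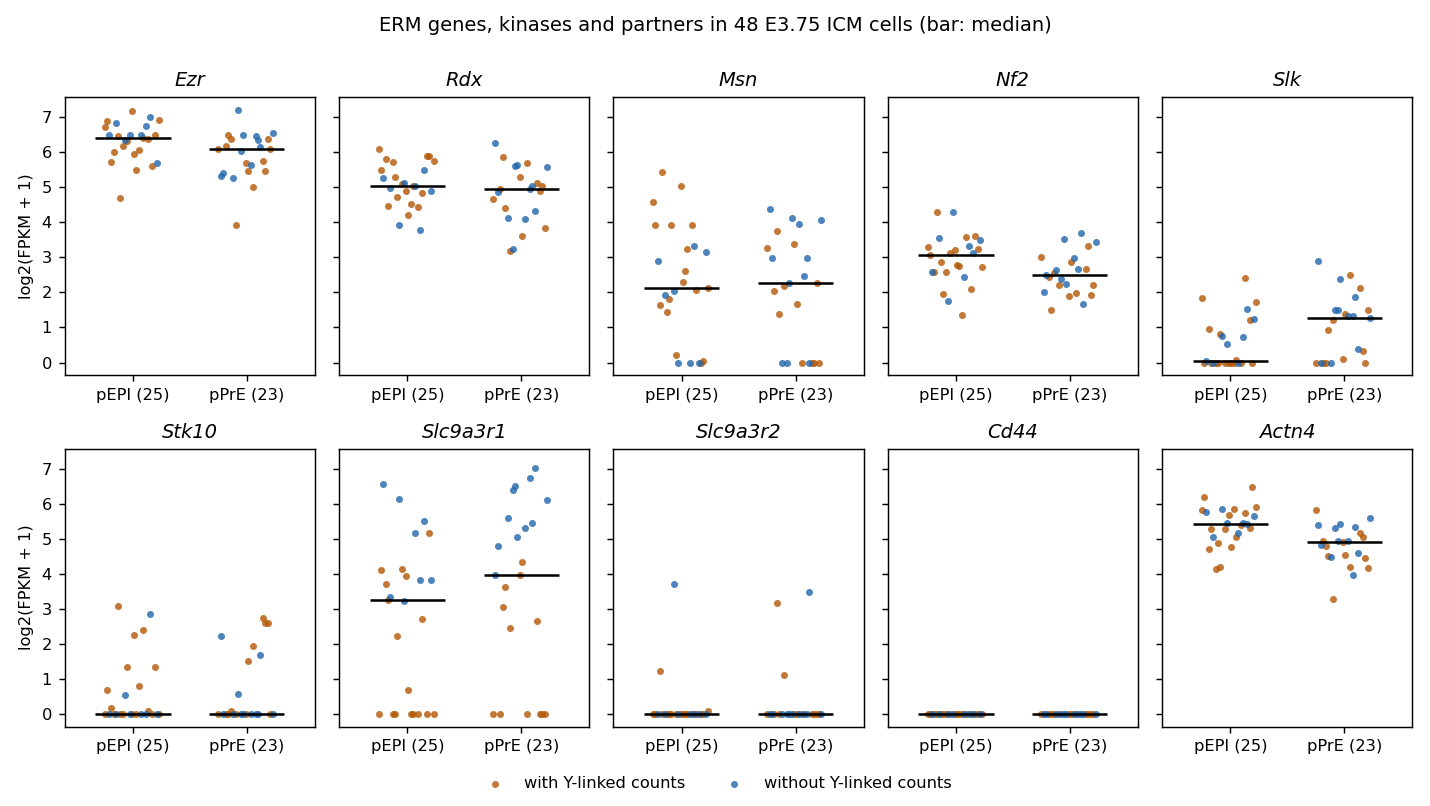
Log2(FPKM + 1) of the 10 genes in each of the 48 cells by branch, 25 pEPI and 23 pPrE, with points coloured by the presence of Y-linked counts and bars at the medians. Ezr, Rdx, Nf2 and Actn4 have counts in every cell, while Slk, Stk10, Slc9a3r1 and Msn have cells at 0 in both branches.

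Relations between members were read from Spearman's rho of FPKM over the 48 cells, for the 36 pairs among the 9 genes with counts. The cells share embryos and scaling, and 18 cells were tied at 0 for Slk, 28 for Stk10 and 42 for Slc9a3r2. These values therefore describe this set of cells. The rho of members with the total count lay between -0.09 and 0.16. Across the pairs rho ran from -0.38 to 0.45 with a median of 0.04, 22 positive and 14 negative. A rho of 0.4 or more in size was reached by 1 of 36 pairs, while 1.8% of the 80355 pairs of a member with a gene tested reached it. With the branch means removed, 0 of 36 pairs reached it, beside 1.24% of member and gene pairs. The first count was 2, 2, 4 and 2 without the cells of well letter B, C, D or E, and the second 1, 2 and 1 without B, D or F. The share of member and gene pairs was not computed for these sets.

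The pair that reached 0.4 over all cells was Ezr and Actn4, the membrane linker and the actin crosslinker, at a rho of 0.45. Both genes were counted in every cell, so ties play no part. The value was 0.39 within pEPI, 0.31 within pPrE, 0.41 and 0.34 among cells with and without Y-linked counts, and 0.34 with the branch means removed. Without the 2 cells farthest from the Ezr median it was 0.43, and Pearson's r of log2(FPKM + 1) was 0.49. Among 8928 genes tested, Actn4 stood at rank 23 by its rho with Ezr. Part of the pooled value thus lies between the branches, and the positive sign was present within each.

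The ERM genes themselves were only weakly related over cells. Spearman's coefficient was 0.19 for Ezr and Rdx, 0.14 for Ezr and Msn, and 0.07 for Rdx and Msn. The last of these hid opposite values, -0.40 among pEPI cells and 0.48 among pPrE cells, so cells rich in Msn tended to be poor in Rdx on the pEPI branch and rich in it on the pPrE branch. Ezr and Msn likewise differed by set, at 0.40 with and -0.23 without Y-linked counts. These differences between groups of cells were not tested.

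Over all cells the kinases and their substrates were weakly related, apart from Stk10 with Msn. Slk had a rho of -0.02 with Ezr, 0.14 with Rdx and -0.06 with Msn, the last at -0.39 among cells with and 0.43 among cells without Y-linked counts. Stk10 had -0.04 with Ezr, 0.05 with Rdx and -0.35 with Msn, the last with counts of both genes in 14 cells and at -0.23 in pEPI and -0.44 in pPrE. The kinases had a rho of 0.05 with each other. For the scaffold Slc9a3r1 the values were 0.22 with Ezr, -0.10 with Rdx, 0.00 with Msn and 0.09 with Slc9a3r2. Merlin and alpha-actinin 4 transcripts stood at 0.38, with 0.13 in pEPI, 0.42 in pPrE, and 0.51 and 0.12 among cells with and without Y-linked counts, and the value of -0.38 for Nf2 and Slc9a3r2 rests on 6 cells with counts of both.

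**Figure D3:**
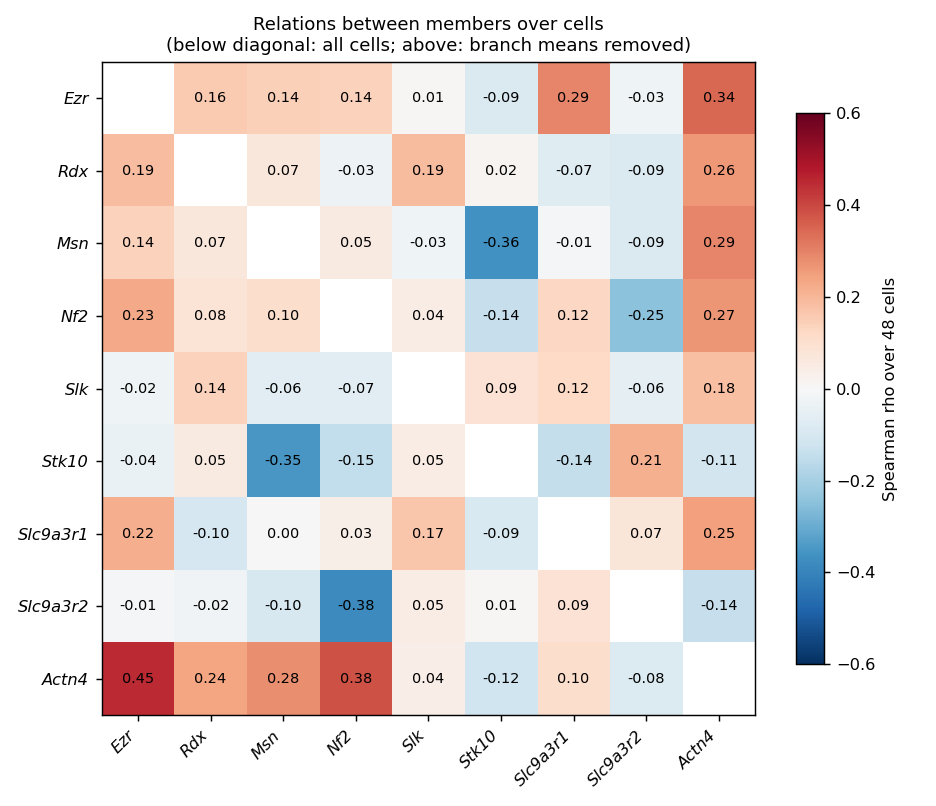
Spearman's rho over 48 cells for the 36 pairs among the 9 members with counts, from FPKM below the diagonal and from log2(FPKM + 1) with branch means removed above it. Ezr and Actn4 stand at 0.45 below and 0.34 above the diagonal, and Msn and Stk10 at -0.35 and -0.36.

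The genes most like each ERM gene over the 48 cells were looked up among the 8928 others tested. For Ezr they were the processed pseudogene Gm11793 at a rho of 0.58, the corepressor subunit Sin3b at 0.53, the tropomyosin copy Tpm3-rs7 at 0.53, Lasp1, which codes for an actin-binding LIM and SH3 protein, at 0.52 and the RNA-binding Rbpms2 at 0.51. For Rdx they were Hspd1-ps3 and its parent Hspd1, the mitochondrial chaperonin, at 0.49 and 0.47, the mitochondrial chaperone Hspa9 at 0.45, and Psmc3ip and Alg5 at 0.45. For Msn they were Sltm at 0.50, the X-linked pseudogene Vcp-rs at 0.49 and its parent Vcp, a segregase of ubiquitinated proteins, at 0.48, and Ccdc174 and the p53 ligase Mdm2 at 0.47. A pseudogene and its parent can share reads, so Hspd1-ps3 with Hspd1 and Vcp-rs with Vcp are uncertain as separate entries.

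The share of genes with a rho of 0.4 or more in size was 1.56% for Ezr, 0.582% for Rdx, 0.907% for Msn, 2.45% for Nf2 and 3.60% for Actn4, and 5.20% for Slc9a3r1. The genes most like Slc9a3r1, named after their values were seen, were the Nodal antagonist Lefty2 at 0.72, counted in 13 cells, the ribosomal protein gene Rps3a1 at 0.70 and Fam25c at 0.69. These values were taken over all cells, and the Y-linked division was not removed from them.

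A lineage score was made for each cell as the mean standardised level of the pPrE markers minus that of the pEPI markers, with medians of -1.16 in pEPI and 1.35 in pPrE. Over all cells it had its largest rho in size with Actn4 at -0.44, then Nf2 at -0.37 and Slk at 0.35, and -0.27 with Ezr, -0.05 with Rdx, 0.11 with Msn and 0.09 with Slc9a3r1. As large a rho as that of Actn4 was held by 6.64% of genes tested. Within the branches the relation of Actn4 was small, -0.11 in pEPI and 0.04 in pPrE, so it lay between the branches. Inside the pEPI branch Msn stood at 0.44 and Slc9a3r1 at -0.49, and inside pPrE at 0.15 and 0.18. Slk stood at -0.12 in pEPI and 0.35 in pPrE, and Nf2 at -0.34 and -0.05. For Stk10 the rho was 0.16 over all cells, 0.28 in pEPI and 0.37 in pPrE. The summed trophectoderm markers had rho values between -0.19 (Ezr) and 0.08 (Msn) with the members.

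The study measured variability of protein, tension and cortex at the surface of single cells. A different kind was looked at here, the spread of each transcript between cells, compared with that of genes of like level. It does not measure variability within a cell. The measure was the residual of the natural log of CV squared, the square of SD over mean of FPKM, from a cubic curve in mean log2(FPKM + 1). Slc9a3r1 had a CV squared of 1.83 and a residual of 1.41, which 2.08% of genes tested exceeded, and Msn had 1.58 and 0.74, exceeded by 10.8%. Ezr (residual 0.22, exceeded by 35.2%), Rdx (0.17, 38.94%) and Actn4 (0.02, 50.4%) varied about as much as other genes of their level, and Nf2 less (-0.50, 80.4%). CV squared was 0.119 in pEPI and 0.188 in pPrE for Ezr, and 0.179 and 0.306 for Rdx. It was the reverse for Msn, at 1.75 and 1.13, for Slc9a3r1, at 2.16 and 1.41, and for Nf2, at 0.309 and 0.273, and nearly level for Actn4, at 0.143 and 0.147. Of all genes tested, 49.2% had the higher CV squared in pPrE, so either direction was common.

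The surroundings of the ERM proteins were followed in 6 lists with 52 genes, of which 49 had counts and 32 were tested. Between the branches 5 were at least 1.5-fold higher and 7 at least 1.5-fold lower in pPrE, 37.5% in all with a median log2 ratio of 0.01, beside 9.12% higher, 12.7% lower and 21.8% in all among the genes tested. The lists were chosen with earlier results of these data known, so the larger share is not a result about the lists. Of the 12 genes, 11 kept their direction within both sets of cells by Y-linked counts, as did 91.0% of all genes past the threshold with a ratio in both sets. Frmd6, a FERM protein of the Hippo pathway, was the exception, at -7.07 with and 0.11 without Y-linked counts, beside -1.24 in all cells.

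Further kinases linked to ERM phosphorylation lay on both sides. Of 11 genes 6 were tested. Rock2, a kinase that also acts on myosin phosphatase, averaged 1.59 FPKM in pEPI against 3.22 in pPrE (log2 ratio 1.02), and Map4k4, a Ste20 kinase, 1.06 and 1.69 (0.67). The germinal centre kinases Stk24 and Stk25 were lower in pPrE, at -0.62 and -0.79. Most abundant was the atypical protein kinase C gene Prkci at 28.7 FPKM, and Prkcq had no count. All 6 phosphatase genes were tested, and Ppp1r12a, the targeting subunit of myosin phosphatase, was higher in pPrE at 0.68, while the catalytic Ppp1ca was the most abundant at 177.7 FPKM with a ratio of 0.05.

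The membrane partners past the threshold, Pdpn and Icam1, were both lower in pPrE. Pdpn, the mucin-like podoplanin that binds ezrin and moesin, ran from 18.8 through a median of 138.2 to 324.0 FPKM in pEPI and from 0 through 30.5 to 302.8 in pPrE. Most pPrE cells were low, but the highest of them came close to the highest pEPI cell. The log2 ratio was -1.56 (-1.60 to -1.53), with -1.18 and -2.14 in the sets with and without Y-linked counts. Icam1, an adhesion receptor, was counted in 18 pEPI and 12 pPrE cells, at means of 11.6 and 1.93 FPKM and a log2 ratio of -2.59. Of the 11 genes of this list 3 were tested, Spn and Slc9a3 had no count, and Podxl, which codes for podocalyxin, was counted in 3 cells.

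The remaining lists held genes on either side. Eps8, an actin-capping and bundling protein, was counted in all 23 pPrE cells and in 11 of 25 pEPI cells, from 0.617 through a median of 3.42 to 7.07 FPKM in pPrE and from 0 through 0 to 5.98 in pEPI. No pPrE cell was at 0, and the log2 ratio was 2.04 (1.94 to 2.14). Pdzd3, a PDZ scaffold related to the NHERF proteins, averaged 4.62 FPKM in pEPI against 23.5 in pPrE (2.35), counted in 11 and 20 cells. Of 6 genes in the list of scaffolds and PIP5 kinases 4 were tested, and Arhgdia was the most abundant at 118.7 FPKM. Of 10 crosslinker genes 7 were tested, with Actn1, the other non-muscle alpha-actinin, lower in pPrE at -0.72 and the bundling Fscn1 most abundant at 41.5 FPKM. Of 8 band 4.1 genes 6 were tested, with Epb41l4b lower in pPrE at -1.75 and Epb41l1 most abundant at 7.80 FPKM.

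**Figure D4:**
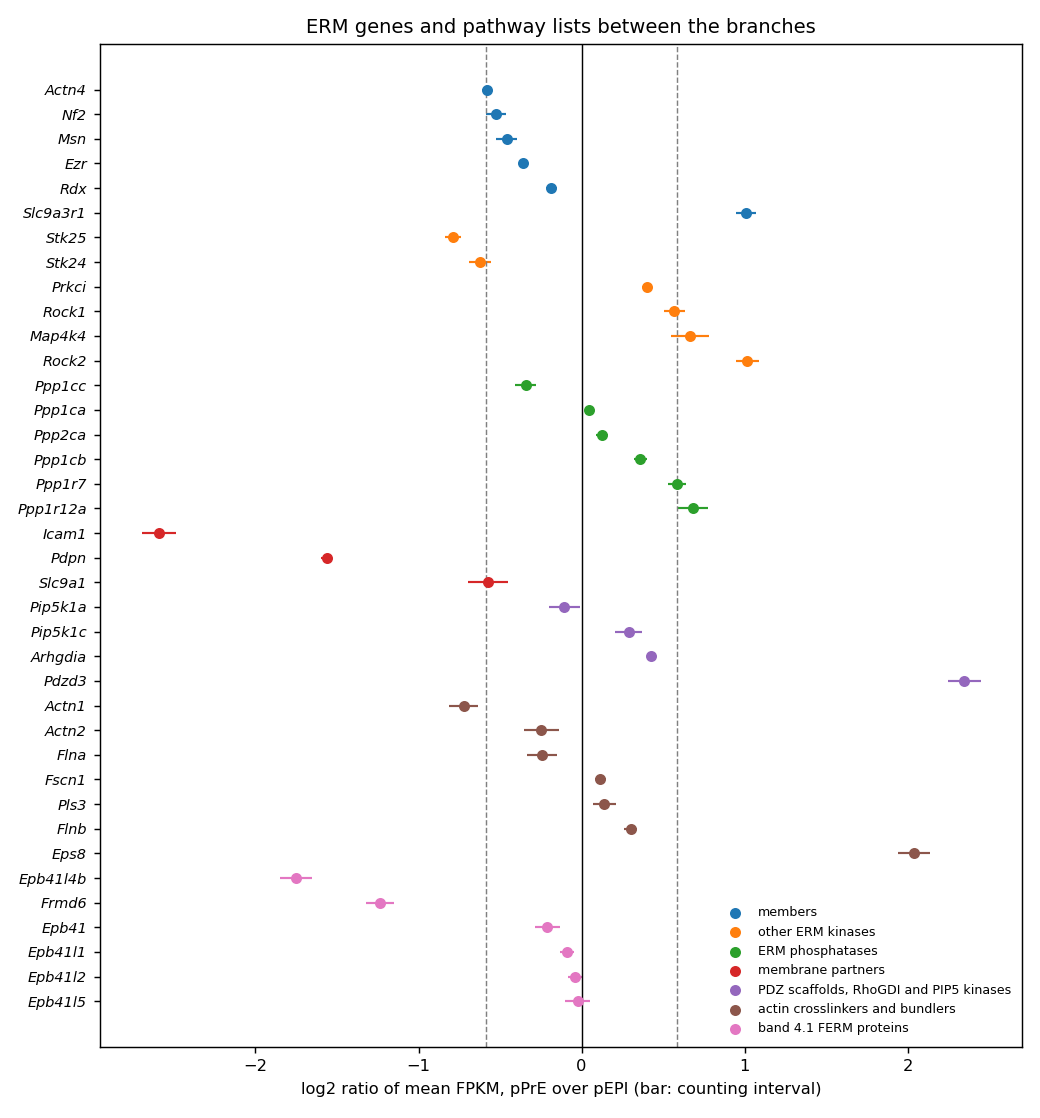
Log2 ratio of mean FPKM, pPrE over pEPI, for the tested members and the tested genes of 6 lists, with bars for counting intervals and dashed lines at 1.5-fold. Pdzd3 at 2.35 and Eps8 at 2.04 lie farthest to the right and Icam1 at -2.59 farthest to the left.

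Some of these genes overlap others on the genome, and without strand marks reads of genes on opposite strands cannot be told apart there. Ezr overlaps Sytl3, whose 1078 counts equal 2.18% of those of Ezr, and Actn4 overlaps Capn12 and Gm44699 with 144 and 102 counts. Gm44699 lies on the same strand as Actn4, where strand marks would not help. Icam1 overlaps Gm47079 with 133 counts, and Stk25 overlaps Farp2 with 477.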

How the data were processed

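Single E3.75 ICM cells were measured by Smart-seq2. The authors aligned reads to mm10 and counted them on Ensembl 87 genes with HTSeq, and the counts were deposited as whole numbers without normalization; STAR and HTSeq are named in the submitters' processing notes without versions. From them FPKM was computed with union exon lengths of GENCODE M21 and library sizes by the median of ratios, and log2 values used a pseudocount of 1. Genes tested had a mean log2(FPKM + 1) above 1, a difference was called at 1.5-fold and a relation at a rho of 0.4. Cells had Y-linked counts from 100 counts upward over 4 genes. The pEPI and pPrE branches were read by eye from the study's dendrogram. An interval of a log2 ratio has the width of the exact interval of the summed counts, placed at the ratio of mean FPKM. The members and lists were chosen with earlier results of these data known. Genes named by rule are all members, the genes of the lists past 1.5-fold and the most abundant gene of each list. The 5 genes most like Ezr, Rdx and Msn are also named by rule. Other genes named are markers, Y-linked genes, overlapping genes, list genes with few or no counts and genes picked after their values were seen. Alternatives covered library size, thinning to 1718970 counts, leaving out each of 6 well letters, Y-linked sets, grouping of cells, summary, thresholds and filter; removing the means of branch and Y-linked set together and basic exon lengths were chosen after seeing the data. The steps were tested on simulated data. Values were computed in Python 3.11.15 with pandas 2.3.3 and numpy 2.4.6, intervals with scipy 1.17.1 and figures with matplotlib 3.10.9. The value of 1 trophectoderm marker is not reported here.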

Additional observations from a re-analysis of the deposited data

How the results depend on the processing

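The count of 1 member past 1.5-fold ran from 1 to 4 when the cells of a well letter were left out, with 2 members without A, 4 without C and 2 without D. It was 3 in cells with Y-linked counts. In cells without them it was 3, among them Slk, which over all cells was below the limit of testing. It was 3 by the sides of PC1, 2 by Ward clusters and 2 by the sign of the lineage score. By means of log2(FPKM + 0.1) it was 2, by medians 2 and without the filter 3. Slc9a3r1 reversed to -0.35 in cells with Y-linked counts and stood at 0.07 by Ward clusters, and Msn reversed to 1.14 in cells without Y-linked counts. The count of 1 pair with a rho of 0.4 ran from 1 to 4 without a well letter, with 2 pairs without B, 2 without C, 4 without D and 2 without E. It was 3 with and 4 without Y-linked counts, 2 by Pearson's r with either pseudocount, 4 at a threshold of 0.3 and 5 in pPrE cells. Rdx and Msn reversed to -0.40 in pEPI cells. With branch means removed, the count of 0 ran from 0 to 2 without a well letter, with 1 pair without B, 2 without D and 1 without F, and was 3 with and 6 without Y-linked counts and 2 by Pearson's r. The cause was not tested. Fewer cells enter each subset. For these alternatives no share over all genes tested, or over pairs of a member and a gene tested, was computed. The counts are therefore not set against a share. Of 102 alternatives for branch ratios of tested members 98 kept the direction and 80 of these the side of the threshold, of 48 for the Y-linked division 45 and 44, and of 105 for named pairs 100 and 82. The Y-linked ratio of Slc9a3r1 stayed between 2.74 and 3.53. Lengths from RefSeq were not run, since the table at hand gives spans of genes. No paired analysis was possible because all cells are 1 sample. Values of Slc9a3r2, Stk10 and Slk rest on 410, 1193 and 1744 counts in all.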

Other observations

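Nf2 had its lowest rho with Pak1, the p21-activated kinase gene whose product phosphorylates merlin, at -0.60 over the 48 cells, with -0.59 in pEPI and -0.64 in pPrE. Pak1 was counted in 28 cells, and the pair was picked after its values were seen. The third gene by rho with Actn4 was Pdpn at 0.62, with 0.47 in pEPI and 0.29 in pPrE, likewise picked afterwards.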
